A study of Mus musculus with 6 samples.

Results

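Toll-like receptors and inflammasome genes were followed in infarcted hearts with and without Zeb2 in cardiomyocytes. The set holds 10 genes named by symbol, Tlr2, Tlr4, Tlr7, Tlr13, Cd14, Myd88, Nlrp3, Casp1, Il1b and Il18, and all 10 were found among the 38293 genes of the count table. Of these, 9 were among the 14746 genes that passed the filter on low counts and were tested, while Il18 did not pass it. Tissue came from the hearts of WT mice and Zeb2 cKO mice, 3 of each, on a backcrossed C57BL/6J background, 14 days after permanent ligation of the left anterior descending (LAD) coronary artery. The study's methods describe the WT group as Zeb2 fl/fl control mice, and the Zeb2 cKO group as Zeb2 fl/fl mice carrying Cre under the cardiomyocyte promoter of Myh6, with surgery at 8 to 10 weeks of age. All 6 hearts were therefore infarcted, and deletion was directed to cardiomyocytes, while RNA came from all cells of the tissue. The labels place the tissue in the infarct border, whereas the methods name the remote zone.

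Toll-like receptors recognise microbial products and material released by injured cells. Most of them signal through the adaptor MyD88 to NF-kB, which raises transcription of Nlrp3, Il1b and other inflammatory genes. The inflammasome, assembled around a sensor such as NLRP3, activates caspase-1, and caspase-1 cleaves the precursors of IL-1 beta and IL-18 into secreted cytokines. In the infarcted heart these genes are known mainly from macrophages and other leukocytes, although fibroblasts, endothelial cells and cardiomyocytes also carry some of the receptors.

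Promoter windows from 250 bases before to 50 bases after the start of transcription were available from RefSeq (GRCm38.p6) for 7 of the 10 genes, in 8 windows. Those of Il1b and Tlr13 are printed because these tested genes had the most negative fold changes between genotypes. Capitals mark a TATA box (TATAAA) in the Il1b window at chr2:129371090-129371389, minus strand. In the Tlr13 window at chrX:106143025-106143324, plus strand, they mark a PU.1 core (GAGGAA) and a C/EBP match (TTGCNNAA, here on the opposite strand).
Il1b: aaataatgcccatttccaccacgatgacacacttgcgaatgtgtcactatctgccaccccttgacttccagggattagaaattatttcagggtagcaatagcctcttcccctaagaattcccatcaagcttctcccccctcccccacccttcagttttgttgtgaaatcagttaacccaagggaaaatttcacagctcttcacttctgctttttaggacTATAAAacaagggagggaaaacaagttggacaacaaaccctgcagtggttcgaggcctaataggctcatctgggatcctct
Tlr13: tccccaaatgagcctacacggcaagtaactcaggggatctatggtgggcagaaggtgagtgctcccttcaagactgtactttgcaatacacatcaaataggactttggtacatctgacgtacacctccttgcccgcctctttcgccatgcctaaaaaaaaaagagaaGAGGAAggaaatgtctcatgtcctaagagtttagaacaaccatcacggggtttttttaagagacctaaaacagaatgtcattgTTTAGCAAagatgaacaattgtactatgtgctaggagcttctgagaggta
The TATA box of Il1b begins 31 bases before the start site, and the PU.1 core of Tlr13 begins 83 bases before it. PU.1 is a transcription factor of macrophages and B cells. Searched on both strands, its core occurred in the windows of Tlr13, Casp1 and Nlrp3, which is 3 of 8 windows, beside 28.3% of all 32851 promoters. A TATA box occurred in 3 of 8 windows (Il1b, Il18 and Myd88), beside 13.6% of all promoters, and the C/EBP letters occurred in 1 (Tlr13), beside 10.8%. NF-kB letters (GGG, 2 bases of any kind and TTTCC, in 1.63% of all promoters) and AP-1 letters (TGANTCA, in 7.81%) had no match in the 8 windows. These are matches of letters, and binding was not measured.

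Libraries held 37288174 to 51136331 counts, of which 14301225 to 19024394 lay outside the mitochondrially encoded genes. Levels are given as CPM, counts scaled to a common library size after normalization with edgeR's TMM method, always in the order of replicates 1, 2 and 3. Zeb2 was at 61.3, 116.05 and 71.9 CPM in WT and at 59.6, 72.6 and 66.5 CPM in Zeb2 cKO hearts, so the groups overlapped. Zeb2 differed between genotypes by -0.33 on the log2 scale (SE, standard error, 0.25, and adjusted p = 0.957 by the quasi-likelihood test of edgeR with Benjamini-Hochberg adjustment) and by -0.0058 without WT replicate 2. WT replicate 2 stood apart from the other 5 libraries. Its 16 macrophage and monocyte markers summed to 995 CPM, against 256 and 351 CPM in the other WT libraries and 307 to 326 CPM in Zeb2 cKO hearts. Its fibroblast markers summed to 5.05 times and its cardiomyocyte markers to 0.53 times the mean of the other 5 libraries. Each of the 7 marker lists was detected, with no marker at 0 in all 6 libraries. In bulk tissue, fewer cells of a type and less RNA per cell cannot be told apart.

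Per kilobase of exon, Tlr4 was the most abundant of the 10 genes, and Nlrp3 the least by median. Tlr4 had a median of 5.93 CPM per kb over the 6 libraries (range 4.39 to 8.98) and exceeded the next gene in 6 of 6 libraries. Cd14 (1.64 CPM per kb), Casp1 (1.49) and Myd88 (1.40) followed with medians close to each other. Cd14 exceeded Casp1 in 4 of 6 libraries and Casp1 exceeded Myd88 in 3 of 6, so this order did not hold beyond the spread. Tlr2 (1.11), Tlr7 (0.964) and Tlr13 (0.844) came next, and Tlr7 was above Tlr13 in 3 of 6 libraries only. The cytokine genes and the sensor were lowest, with medians of 0.337 CPM per kb for Il1b, 0.187 for Il18 and 0.134 for Nlrp3. Il1b was above Il18 in 6 of 6 libraries, and Il18 was above Nlrp3 in 5 of 6. Among all 12 mouse Toll-like receptor genes in the table, Tlr4 held 43.7% to 53.8% of the summed level per kb in 5 libraries and 34.0% in WT replicate 2. Tlr3, a receptor for double-stranded RNA that does not use MyD88, was second in this family with a median of 1.45 CPM per kb.

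**Figure D1:**
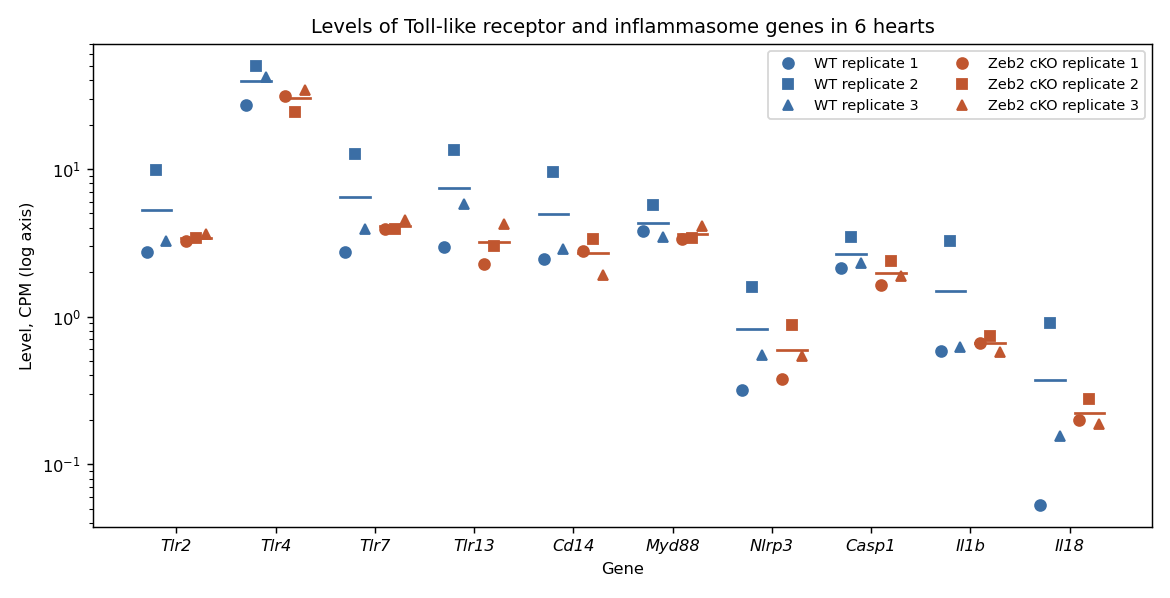
Level of each of the 10 genes in CPM (log axis) in the 3 WT (blue) and 3 Zeb2 cKO (orange) hearts, with the marker shape giving the replicate number and the horizontal lines the group means. WT replicate 2 (blue square) is the highest of the 6 libraries for all 10 genes, while the remaining WT libraries lie among or near the Zeb2 cKO libraries.

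The comparison between genotypes asks whether loss of Zeb2 in cardiomyocytes was accompanied by other levels of these innate immune genes. All 9 tested genes had a lower mean in Zeb2 cKO than in WT hearts, with log2 fold changes between -0.25 and -1.22. None passed the test, and WT replicate 2 was the highest of the 6 libraries in 9 of 9, beside 35.2% of all tested genes. In 5 of 9 (Tlr2, Tlr7, Tlr13, Cd14 and Il1b) it was over 2 times the highest other library, beside 5.95% of all tested genes. Without this library the fold changes lay on both sides of 0. The adjusted p was 0.957 for each of the 9 genes (edgeR quasi-likelihood test with Benjamini-Hochberg adjustment over 14746 genes), so each fold change below is given with its 95% interval from the same fit. A gene compared between 3 and 3 mice cannot give an exact permutation p under 0.1.

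Tlr4 (ENSMUSG00000039005, GRCm38 chr4:66827584-66930284, plus strand) encodes the receptor for bacterial lipopolysaccharide. It was at 27.0, 49.9 and 42.1 CPM in WT (n = 3, mean 39.7 ± 11.6 SD) and at 31.4, 24.4 and 34.5 CPM in Zeb2 cKO hearts (n = 3, mean 30.1 ± 5.17 SD). WT replicates 2 and 3 lay above all Zeb2 cKO libraries and WT replicate 1 lay among them. Between the groups the log2 fold change was -0.40 (95% interval -0.98 to 0.18) with all libraries and -0.20 without WT replicate 2 (exact permutation test with all libraries, two-sided p = 0.3).

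CD14 delivers lipopolysaccharide to TLR4. Cd14 (ENSMUSG00000051439) was at 2.47, 9.59 and 2.89 CPM in WT (n = 3, mean 4.98 ± 4.0 SD) and at 2.80, 3.34 and 1.92 CPM in Zeb2 cKO hearts (n = 3, mean 2.69 ± 0.719 SD). Apart from WT replicate 2, the libraries of both genotypes were interspersed. Its log2 fold change was -0.90 (95% interval -2.18 to 0.38) with all libraries and 0.00071 without WT replicate 2.

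TLR2 recognises bacterial lipoproteins. Tlr2 (ENSMUSG00000027995, chr3:83836272-83841767, minus strand) was at 2.76, 9.91 and 3.23 CPM in WT (n = 3, mean 5.30 ± 4.0 SD) and at 3.28, 3.41 and 3.61 CPM in Zeb2 cKO hearts (n = 3, mean 3.43 ± 0.168 SD). The 3 Zeb2 cKO libraries were close together, above WT replicates 1 and 3 and far below WT replicate 2. Between genotypes Tlr2 had a log2 fold change of -0.63 (95% interval -1.76 to 0.50) with all libraries and 0.20 (95% interval -0.16 to 0.56) without WT replicate 2. In that comparison Tlr2 was the only tested gene of the set whose groups did not overlap, beside 15.5% of all genes tested in it.

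Tlr7 and Tlr13 encode endosomal receptors for single-stranded RNA and for bacterial ribosomal RNA. Tlr7 (ENSMUSG00000044583, chrX:167304929-167330558, minus strand) was at 2.73, 12.6 and 3.93 CPM in WT (n = 3, mean 6.44 ± 5.41 SD) and at 3.94, 3.92 and 4.49 CPM in Zeb2 cKO hearts (n = 3, mean 4.11 ± 0.322 SD). Its pattern was that of Tlr2, with WT replicate 2 at 3.33 times the mean of the other 5 libraries the Zeb2 cKO libraries close to WT replicate 3 or above it, and WT replicate 1 lowest. The log2 fold change was -0.65 (95% interval -1.92 to 0.62) with all libraries and 0.31 without WT replicate 2.

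Tlr13 (ENSMUSG00000033777, chrX:106143204-106160493, plus strand) had the most negative fold change of the set. It was at 2.97, 13.5 and 5.76 CPM in WT (n = 3, mean 7.41 ± 5.45 SD) and at 2.28, 3.02 and 4.24 CPM in Zeb2 cKO hearts (n = 3, mean 3.18 ± 0.992 SD). WT replicates 2 and 3 lay above all Zeb2 cKO libraries, whereas WT replicate 1 lay among them. The log2 fold change was -1.22 (95% interval -2.49 to 0.05, unadjusted p = 0.058, edgeR quasi-likelihood test). Without WT replicate 2 it was -0.45, which kept Tlr13 on the lower side with Tlr4 and Casp1.

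Myd88 (ENSMUSG00000032508, chr9:119335934-119341411, minus strand) encodes the adaptor shared by most Toll-like receptors and by the IL-1 and IL-18 receptors. It was at 3.80, 5.72 and 3.44 CPM in WT (n = 3, mean 4.32 ± 1.23 SD) and at 3.38, 3.41 and 4.11 CPM in Zeb2 cKO hearts (n = 3, mean 3.63 ± 0.415 SD). WT replicate 2 was again highest, by a smaller factor of 1.58 over the mean of the other 5 libraries, and the other libraries overlapped. Myd88 thus had a log2 fold change of -0.25 (95% interval -0.79 to 0.29) with all libraries and 0.011 without WT replicate 2. Its exons overlap those of Acaa1a on the opposite strand, which had up to 705 counts, and 9.11% of the longest Myd88 transcript matched Acaa1a. The strand option of the counting was not stated, so reads of Myd88 and Acaa1a may not have been separated.

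Among inflammasome genes, Nlrp3 (ENSMUSG00000032691, chr11:59541568-59566956, plus strand) encodes the sensor. It had 12, 70 and 21 counts in WT and 19, 38 and 29 counts in Zeb2 cKO hearts, which corresponds to 0.319, 1.60 and 0.547 CPM against 0.380, 0.876 and 0.540 CPM. WT replicate 2 was highest and Zeb2 cKO replicate 2 came next, with the other 4 libraries below both. For Nlrp3 the log2 fold change was -0.48 (95% interval -1.94 to 0.99) with all libraries and 0.45 without WT replicate 2. The interval leaves the difference poorly resolved.

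Casp1 (ENSMUSG00000025888, chr9:5298517-5307265, plus strand) encodes the caspase that cleaves the cytokine precursors. It was at 2.15, 3.46 and 2.32 CPM in WT (n = 3, mean 2.64 ± 0.715 SD) and at 1.64, 2.37 and 1.88 CPM in Zeb2 cKO hearts (n = 3, mean 1.96 ± 0.375 SD). Zeb2 cKO replicates 1 and 3 lay below all WT libraries and Zeb2 cKO replicate 2 lay above WT replicates 1 and 3. For Casp1 the log2 fold change was -0.43 (95% interval -1.03 to 0.17) with all libraries and -0.19 without WT replicate 2.

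Il1b (ENSMUSG00000027398, chr2:129364570-129371139, minus strand), whose TATA box is shown above, encodes the precursor of IL-1 beta. It had 22, 142 and 24 counts in WT and 33, 32 and 31 counts in Zeb2 cKO hearts, or 0.584, 3.24 and 0.625 CPM against 0.659, 0.737 and 0.577 CPM. WT replicate 2 was at 5.08 times the mean of the other 5 libraries, and those 5 lay within a narrow range without separation of the genotypes. The log2 fold change was -1.18 (95% interval -2.80 to 0.44) with all libraries and 0.12 without WT replicate 2. An annotated antisense transcript, Il1bos, overlaps its exons but had at most 2 counts in a library.

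Il18 (ENSMUSG00000039217, chr9:50554827-50581840, plus strand) encodes the precursor of IL-18 and was close to the limit of detection. It had 2, 40 and 6 counts in WT and 10, 12 and 10 counts in Zeb2 cKO hearts. The Zeb2 cKO libraries were alike and lay between WT replicate 2 and the remaining WT libraries. It was not tested, since it did not pass the filter on low counts. Without that filter its log2 fold change was -0.77 (SE 0.80, adjusted p = 0.858, edgeR quasi-likelihood test with Benjamini-Hochberg adjustment).

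**Figure D2:**
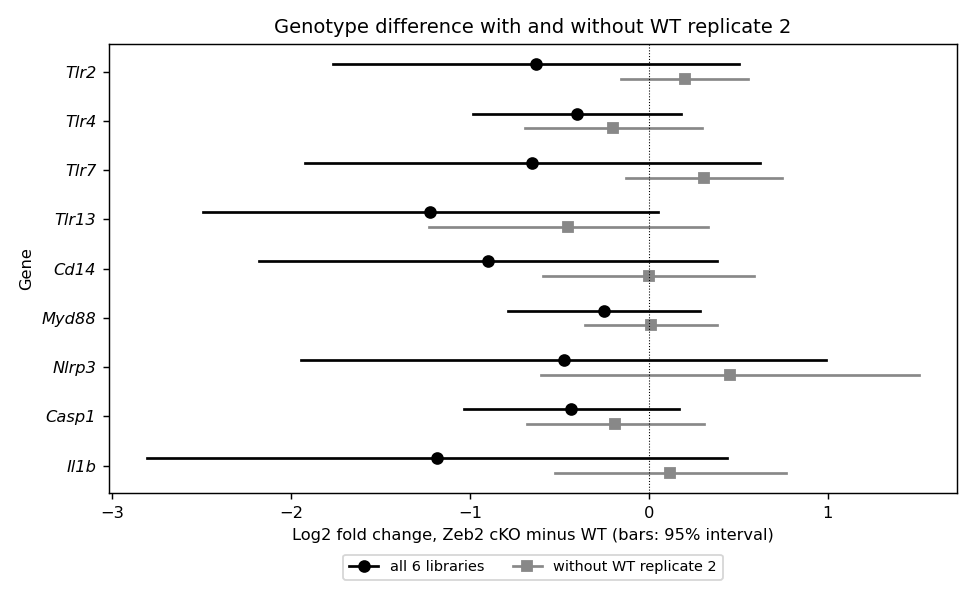
Log2 fold change of Zeb2 cKO over WT for the 9 tested genes, with 95% intervals, from all 6 libraries (black circles) and without WT replicate 2 (grey squares). All 9 black points lie below 0 with intervals that cross it, and without WT replicate 2 only Tlr4, Tlr13 and Casp1 remain below 0.

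In counts over the set, 0 of 9 genes passed an adjusted p of 0.05 (0.0% of all tested genes), 0 had an unadjusted p under 0.05 (1.9% of all tested genes) and 0 had groups that did not overlap (6.36% of all tested genes), by edgeR's quasi-likelihood test for both p-values. DESeq2's Wald test gave 1 of 9 at an unadjusted p under 0.05, Tlr13, beside 2.45% of all genes by that test. A fold change below 0 was found in 9 of 9, beside 51.4% of all tested genes, and the median log2 fold change was -0.63, beside -0.0069 over all tested genes. These values depended on WT replicate 2. Without it 3 of 9 genes were below 0, beside 49.1% of all genes tested then, and the median was 0.011, with 0 of 9 at an unadjusted p under 0.05, beside 2.63%. They also depended on WT replicate 1, the lowest WT library for every tested gene of the set except Myd88. Without it the median over the same 9 genes was -0.94, and Il18 also passed the filter. Of the 10 genes tested then, 4 (Tlr13, Tlr4, Cd14 and Il1b) had an unadjusted p under 0.05, all lower, beside 7.52% of all genes tested in that comparison. Groups that did not overlap were found in 2 of these 10, Tlr4 and Tlr13, beside 23.0% of all genes, so this count was near the background. None of these passed adjustment.

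The 9 tested genes moved together over the libraries to different degrees. As a description over 6 libraries, Pearson's r of log2 CPM between a gene and the mean of the other tested members was 0.978 for Tlr2, 0.964 for Il1b and 0.962 for Tlr7. It was lowest for Tlr4 (0.724), with Casp1 (0.869), Nlrp3 (0.870) and Myd88 (0.872) next. These values rest on WT replicate 2. Over the remaining 5 libraries r was at most 0.640 (Nlrp3), near 0 for Cd14 (0.041) and -0.27 for Myd88. Of the genes outside the set that were compared, Asah1, Apobec1, Nckap1l, Ptpn6 and Skap2 followed the mean of the set most closely. Their r was 0.9985 to 0.9993 over 6 libraries and 0.976 to 0.996 over the 5 without WT replicate 2. They were chosen by r over the 6 libraries, which include these 5, so the second range is not an independent check. An r over 0.9 over 6 libraries was found in 1883 of the 14560 tested genes outside the set that were compared (12.9%). This share was not taken over the 5 libraries.

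The genes of the set differed in how far they followed the macrophage markers, which were summed over 16 genes in each library. Tlr2 and Tlr7 stayed in nearly the same proportion to these markers in all 6 hearts. The other genes of the set varied more, with a range of 1.67 times in Cd14 to 4.42 times in Il18. No gene of the set separated the genotypes. Per 1000 CPM of macrophage markers, Tlr2 was at 10.8, 9.96 and 9.20 CPM in WT and at 10.1, 10.6 and 11.8 CPM in Zeb2 cKO hearts, a range of 1.28 times. Tlr7 was at 10.7, 12.7 and 11.2 CPM in WT and at 12.1, 12.2 and 14.6 CPM in Zeb2 cKO hearts, a range of 1.37 times. WT replicate 2, which had the highest Tlr2 and Tlr7 of all libraries, lay inside these ranges. Tlr4 was at 105.6, 50.1 and 120.1 CPM per 1000 CPM of markers in WT and at 96.3, 75.9 and 112.3 CPM in Zeb2 cKO hearts. WT replicate 2 was thus lowest for Tlr4, as it also was for Myd88 (5.75 CPM, others 9.80 to 14.8) and Casp1 (3.48 CPM, others 5.03 to 8.40). For Il1b it was highest, at 3.25 CPM against 1.78 to 2.30 CPM in the other 5 libraries. Tlr13 ranged from 6.99 to 16.4 CPM and Cd14 from 6.24 to 10.4 CPM, with WT replicate 2 inside both ranges. Nlrp3 ranged from 1.17 to 2.73 CPM, also with WT replicate 2 inside. Il18 ranged from 0.207 CPM to 0.916 CPM, the latter in WT replicate 2.

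**Figure D3:**
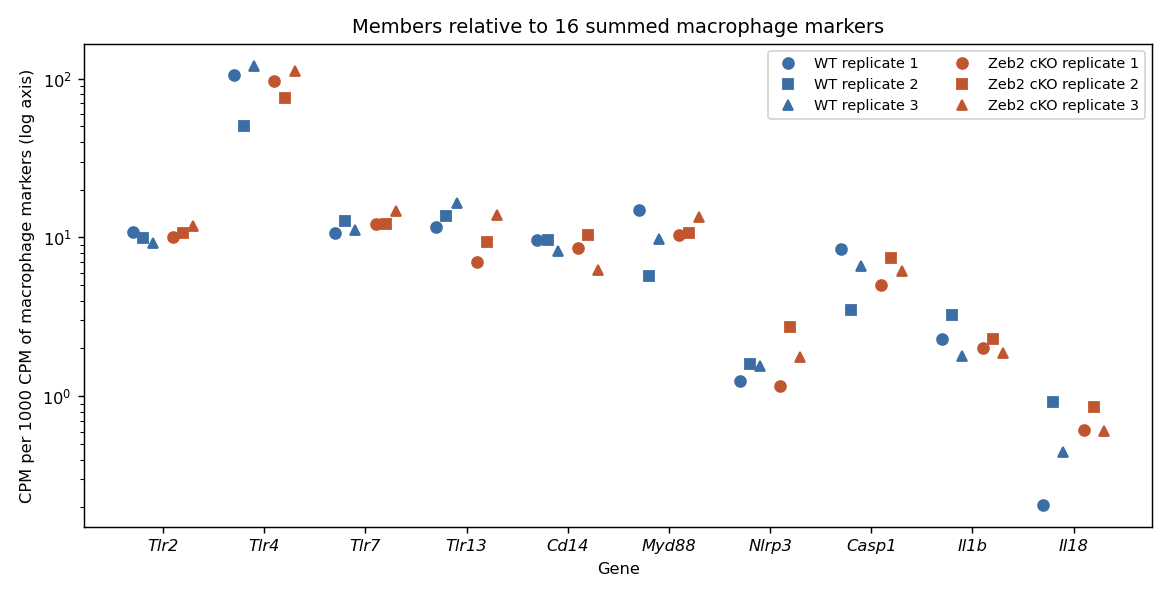
CPM of each gene per 1000 CPM of 16 summed macrophage markers of the same library (log axis), for WT (blue) and Zeb2 cKO (orange) hearts, with the marker shape giving the replicate number. Tlr2 spans 1.28 times and Tlr7 1.37 times over the 6 libraries, and WT replicate 2 (blue square) is lowest for Tlr4, Myd88 and Casp1 and highest for Il1b and Il18.

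Between genotypes, 0 of 10 ratios to the macrophage markers had groups that did not overlap, beside 2.73% of all tested genes. The smallest exact permutation p among them was 0.3 (two-sided), for Tlr7 and Tlr13. On the log2 scale the ratio was higher in Zeb2 cKO hearts by 0.17 for Tlr7 and lower by a difference of -0.50 for Tlr13. Without WT replicate 2 the ratios of Tlr7 and Il18 were higher in all Zeb2 cKO libraries than in both WT libraries, which is 2 of 10, beside 7.08% of all tested genes. With the mean of the macrophage markers as a covariate in the edgeR fit, the log2 fold change was 0.12 for Tlr2, 0.25 for Tlr7, 0.45 for Nlrp3 and -0.44 for Tlr13, and the adjusted p of Tlr2 was 1.0 (quasi-likelihood test with Benjamini-Hochberg adjustment). Markers of other leukocytes had lower sums. The 10 neutrophil markers summed to 1.52 to 5.33 CPM and the 8 B and T cell markers to 1.20 to 4.08 CPM, each highest in WT replicate 2. The 7 dendritic cell markers summed to 13.8 to 17.5 CPM and were lowest in WT replicate 2. Most of that sum was Zbtb46 (9.57 to 17.0 CPM), which endothelial cells also express. What share of the Toll-like receptor and inflammasome levels came from each cell type was not tested.

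Cytokines were also compared with their natural antagonists within each library. IL-1 receptor antagonist, encoded by Il1rn, blocks the receptor of IL-1 beta. Il1rn was at 0.504, 1.23 and 0.286 CPM in WT and at 0.280, 0.115 and 0.186 CPM in Zeb2 cKO hearts. Every Zeb2 cKO library was below every WT library, by a margin that was small against WT replicate 3. Groups did not overlap in 6.36% of all tested genes. For Il1rn the log2 fold change was -1.78 (SE 0.61, unadjusted p = 0.023, adjusted p = 0.957, edgeR quasi-likelihood test with Benjamini-Hochberg adjustment) and -1.0 without WT replicate 2. The log2 ratio of Il1b to Il1rn was 0.21, 1.39 and 1.13 in WT and 1.24, 2.68 and 1.63 in Zeb2 cKO hearts. The groups overlapped through WT replicate 2, and the mean difference of 0.94 did not pass an exact permutation test (two-sided p = 0.2). Its size was not stable, at 0.16 with a pseudocount of 0.5 CPM, 0.59 without WT replicate 1 and 0.52 without Zeb2 cKO replicate 2.

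Il18bp, whose product binds and neutralises IL-18, was more abundant than Il18 in all 6 libraries. It was at 5.71, 5.58 and 7.19 CPM in WT and at 5.62, 6.80 and 7.33 CPM in Zeb2 cKO hearts, and unlike the genes of the set it was not highest in WT replicate 2. The log2 ratio of Il18 to Il18bp was -6.75, -2.61 and -5.52 in WT and -4.81, -4.62 and -5.30 in Zeb2 cKO hearts. WT replicates 1 and 3, on 2 and 6 counts of Il18, were lowest. The means differed by 0.051 (exact permutation test, two-sided p = 1.0), and the sign depended on the libraries, with -0.84 without WT replicate 1, -0.23 without WT replicate 3, -0.094 without Zeb2 cKO replicate 2 and 1.23 without WT replicate 2, and on a pseudocount of 0.5 CPM (-0.24).

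Around the set, other genes of the same pathways were grouped in 5 lists. Most tested genes of the lists had a lower mean in Zeb2 cKO hearts, and none passed the test after adjustment. Without WT replicate 2 the medians moved to between -0.02 and 0.27. Of all tested genes, 51.4% had a fold change below 0 with all libraries and 49.1% without WT replicate 2. The other Toll-like receptor genes numbered 8, of which 6 were tested. Of these 6, 0 had an unadjusted p under 0.05 (edgeR quasi-likelihood test), 6 were below 0 (median log2 fold change -0.69), and 2 remained below 0 without WT replicate 2 (median 0.27). Tlr8, a neighbour and relative of Tlr7, was at 1.78, 8.91 and 3.10 CPM in WT and at 2.10, 2.51 and 2.20 CPM in Zeb2 cKO hearts. For Tlr8 the log2 fold change was -1.02 (SE 0.55) and -0.10 without WT replicate 2. Tlr9, a receptor for unmethylated DNA, was at 0.451, 3.28 and 0.677 CPM in WT and at 0.600, 0.622 and 0.837 CPM in Zeb2 cKO hearts. Tlr3 differed least between WT replicate 2 and the rest, with 7.09, 11.9 and 8.02 CPM in WT and 5.99, 7.14 and 7.97 CPM in Zeb2 cKO hearts. In each of the 3 genes WT replicate 2 was the highest library and the others overlapped.

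Co-receptors, adaptors and kinases of receptor signalling formed a list of 25 genes, of which 24 were tested. Of these, 0 had an unadjusted p under 0.05 in either direction (edgeR quasi-likelihood test), 18 were below 0 and the median log2 fold change was -0.092. Without WT replicate 2, 11 of 24 were below 0 and the median was 0.009. Ly86, encoding MD-1, the partner of the receptor homologue RP105, was at 2.02, 14.0 and 3.96 CPM in WT and at 2.74, 2.60 and 3.13 CPM in Zeb2 cKO hearts. Irf5, a transcription factor downstream of MyD88, was at 3.24, 9.52 and 3.93 CPM in WT and at 3.24, 3.37 and 3.70 CPM in Zeb2 cKO hearts. Lbp, whose product carries lipopolysaccharide to CD14, was at 4.62, 10.9 and 6.22 CPM in WT and at 4.0, 5.62 and 5.14 CPM in Zeb2 cKO hearts. As in the receptors, WT replicate 2 was highest in these 3 genes. Without it their log2 fold changes were between -0.06 and -0.14.

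NF-kB subunits, their kinases and NF-kB targets formed a list of 31 genes, of which 27 were tested. With all libraries 19 were below 0 and the median log2 fold change was -0.15. Without WT replicate 2, 16 of 27 were below 0 and the median was -0.025. With all libraries, an unadjusted p under 0.05 was reached by 1 of the 27 (edgeR quasi-likelihood test), Il6, and it was lower. Of all tested genes, 1.9% reached it in either direction and 0.861% lower. Without WT replicate 2, 0 of the 27 reached it. Il6, the gene of an inflammatory cytokine, was at 0.372, 1.39 and 0.391 CPM in WT and at 0.220, 0.161 and 0.372 CPM in Zeb2 cKO hearts. For Il6 the log2 fold change was -1.50 (SE 0.62) and -0.57 without WT replicate 2, and Zeb2 cKO replicate 3 was level with WT replicate 1. Nfkbia encodes the inhibitor IkB alpha and is itself a target of NF-kB. It was at 11.3, 10.8 and 9.25 CPM in WT and at 7.41, 8.90 and 8.90 CPM in Zeb2 cKO hearts, and WT replicate 2 did not stand out. All 3 Zeb2 cKO libraries were below all WT libraries (groups did not overlap in 6.36% of all tested genes, 2.97% lower). For Nfkbia the log2 fold change was -0.31 (SE 0.14, unadjusted p = 0.058, edgeR quasi-likelihood test) and -0.28 without WT replicate 2. Ccl2, a chemokine gene that draws monocytes, was at 1.14, 1.71 and 2.27 CPM in WT and at 1.32, 1.24 and 1.08 CPM in Zeb2 cKO hearts, with overlap between the groups.

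Other inflammasome sensors, adaptors, caspases and effectors formed a list of 23 genes, of which 19 were tested, 15 were below 0 and the median log2 fold change was -0.26. Without WT replicate 2, 4 of 19 were below 0 and the median was 0.11. With all libraries, an unadjusted p under 0.05 was reached by 1 of the 19, Txnip (edgeR quasi-likelihood test), and it was lower. Of all tested genes, 1.9% reached it in either direction and 0.861% lower. Txnip encodes a thioredoxin-binding protein that has been described as an NLRP3 partner and that also responds to glucose. It was at 324.3, 349.5 and 306.1 CPM in WT and at 149.9, 212.0 and 256.4 CPM in Zeb2 cKO hearts. Groups did not overlap in 6.36% of all tested genes, and for Txnip each Zeb2 cKO library was below each WT library. Its log2 fold change was -0.66 (SE 0.22, unadjusted p = 0.019, adjusted p = 0.957, edgeR quasi-likelihood test with Benjamini-Hochberg adjustment) and -0.61 without WT replicate 2. Of its longest transcript, 21.6% matched Gm15441 closely, and reads of that stretch are uncertain. Panx1, a membrane channel gene, had the pattern of the set, with 1.70, 5.99 and 2.32 CPM in WT and 1.26, 2.03 and 2.61 CPM in Zeb2 cKO hearts. Brcc3, the gene of a deubiquitinase that acts on NLRP3, was at 9.13, 9.25 and 9.97 CPM in WT and at 11.1, 10.2 and 10.3 CPM in Zeb2 cKO hearts. Its groups did not overlap, as in 6.36% of all tested genes (3.39% higher). Even so, the log2 fold change of 0.16 (95% interval -0.10 to 0.41) did not pass the test.

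Ligands, receptors and antagonists of the interleukin-1 family formed a list of 14 genes, of which 10 were tested, 7 were below 0 and the median log2 fold change was -0.50. Il1rn, given above, was the 1 gene of the 10 with an unadjusted p under 0.05 (edgeR quasi-likelihood test), and it was lower. Such a p was found in 1.9% of all tested genes in either direction and in 0.861% lower. Without WT replicate 2 the unadjusted p of Il1rn was 0.072 by the same test. Il1r1, the receptor of IL-1 beta, was at 9.21, 28.1 and 10.3 CPM in WT and at 9.13, 7.95 and 10.4 CPM in Zeb2 cKO hearts. Il1rl2, a receptor of the IL-36 cytokines, was at 1.12, 2.80 and 1.80 CPM in WT and at 1.24, 1.13 and 1.47 CPM in Zeb2 cKO hearts. Both were highest in WT replicate 2 and overlapped otherwise. Without WT replicate 2, 4 of 10 genes were below 0 and the median was 0.029. Il33, a gene of the family that is described further on, then had an unadjusted p under 0.05 and was higher. In that comparison 2.63% of all tested genes had such a p in either direction, and 1.55% were higher.

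**Figure D4:**
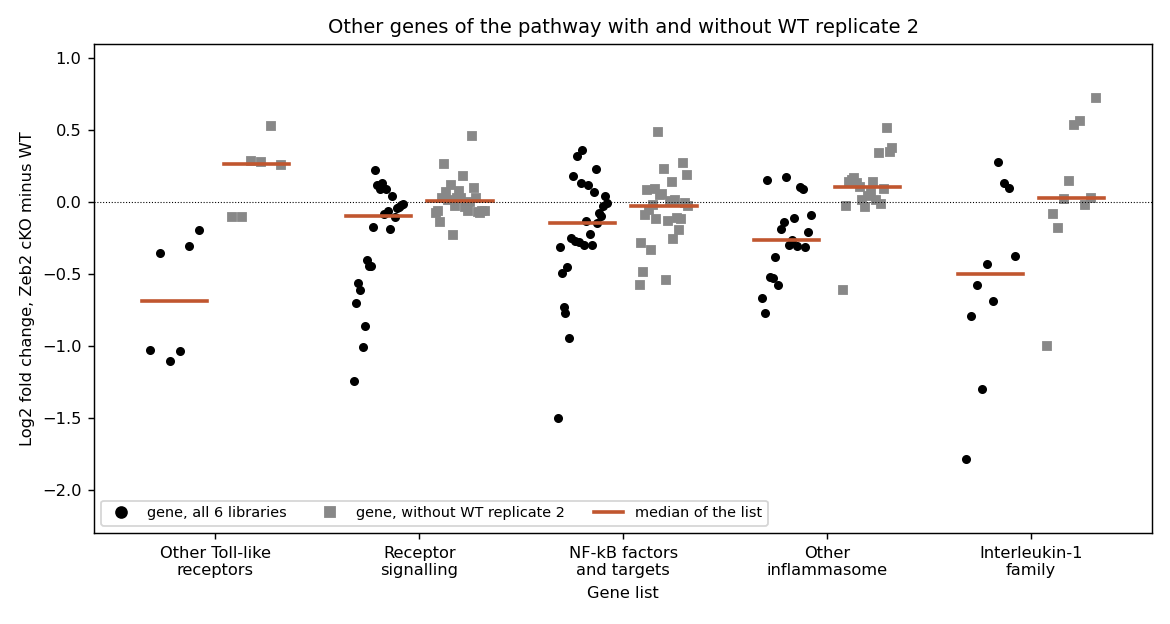
Log2 fold change of Zeb2 cKO over WT for each tested gene of the 5 pathway lists, from all 6 libraries (black circles) and without WT replicate 2 (grey squares), with the median of each list as a line. Medians with all libraries lie between -0.69 and -0.092 and move to between -0.02 and 0.27 without WT replicate 2.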

How the data were processed

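Each library was assigned to genotype and replicate from its labels, and 0 columns were left unmapped. The authors deposited raw counts per gene, from stranded total RNA libraries without ribosomal RNA (single-end, 75 bases) that they aligned and counted with a STAR workflow on Gencode M4 (GRCm38). The STAR version, the strand option and the treatment of reads with several matches are not given in the sources used here. The submitters' processing notes name DESeq 1.2, which was not used here.

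From these counts, TMM normalization, filterByExpr with its defaults and the quasi-likelihood test (glmQLFit, glmQLFTest) with genotype as the factor were run in edgeR 4.0.16 (R 4.3.3), with Benjamini-Hochberg adjustment over 14746 genes. The prior count was 0.125 for fold changes and 2 for the log2 CPM of correlations. Single values were compared by exact permutation tests, two-sided, with a smallest p of 0.1 (0.2 for 2 against 3). The common biological coefficient of variation was 0.243. Tested on simulated data for this comparison (14475 genes), edgeR called 56 of 100 genes changed by 1 and 98 of 100 changed by 2 on the log2 scale, with 6 calls among 14275 unchanged genes. Intervals cover only the spread between these 6 hearts and counting error.

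Symbols, exon lengths and coordinates came from Gencode M21 by gene identifier. Near-identical transcripts were searched with BLAST 2.17.0 (at least 75 bases at 95% identity). The members and the gene lists were chosen with earlier results of these data known. Named genes were the members, Zeb2, Il1rn, Il18bp, the 3 tested genes with the smallest p in each pathway list and the 5 genes most correlated with the mean of the members. Pairs of libraries differed by more than sampling noise (chi-square per degree of freedom 14.6 to 196.2). Replicate numbers occur in both genotypes, but the animals differ, and the deviations of equal numbers correlated at 0.088, -0.14 and -0.087, so they were not used as pairs. Alternatives were size factors, no filter, DESeq2 1.42.0, robust dispersions, a replicate block, mitochondrial genes left out, a macrophage covariate, a pseudocount and leaving out each library.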

Additional observations from a re-analysis of the deposited data

How the results depend on the processing

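With all 6 libraries, the number of genes past an adjusted p of 0.05 was 0 in edgeR and 2 in DESeq2, neither of them a member. At an unadjusted p under 0.05 there were 280 genes, and 600 without a filter on low counts, while members at that level went from 0 to 1 (Tlr13) without the filter and to 1 (Tlr13) with DESeq2. With a pseudocount of 0.5 CPM, 1 of 12 ratios had groups that did not overlap (Tlr7 to macrophage markers), against 0 without it. A share over all genes was not taken with this pseudocount. Leaving out 1 library at a time gave 122 to 1134 genes and 0 to 4 members at an unadjusted p under 0.05, 0 to 2 members (beside 10.9% to 23.0% of all genes) and 0 to 4 ratios whose groups did not overlap (beside 4.46% to 46.9% of all genes for the ratio to macrophage markers), and a median member log2 fold change of -0.97 (without WT replicate 1, over 10 members) to 0.011 (without WT replicate 2, over 9). These shares were added after seeing the data. The sign turned without WT replicate 2 for 6 members, whose log2 fold changes over these settings ran from -0.94 to 0.20 in Tlr2, -1.01 to 0.31 in Tlr7, -1.22 to 0.00071 in Cd14, -0.39 to 0.011 in Myd88, -0.85 to 0.45 in Nlrp3 and -1.56 to 0.12 in Il1b. It also turned with the macrophage covariate for Tlr2 (0.12), Tlr7 (0.25) and Nlrp3 (0.45). The causes were not tested. The other member fold changes, 52 from leaving out a library and 60 from other settings, kept their direction. With the replicate number as a block, the median member log2 fold change was -0.38 with 0 members and 247 genes at an unadjusted p under 0.05, and no call changed. Counts were low for Nlrp3 and Il1b, under 50 in the 5 libraries other than WT replicate 2. Il18 had at most 40 counts in any library. The standard error of Nlrp3 was 0.62 with all libraries and 0.45 without WT replicate 2, and that of Il1b 0.68 and 0.28. Whether depth limited these genes was not tested.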

Other observations

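Some genes of the lists had other patterns, and they were chosen after their values were seen. Il33, an alarmin of the interleukin-1 family made by stromal cells, was at 2.02, 11.5 and 2.63 CPM in WT and at 3.84, 3.41 and 2.85 CPM in Zeb2 cKO hearts. WT replicate 2 was highest, and the 3 Zeb2 cKO libraries lay above the remaining WT libraries. Its log2 fold change was -0.68 (standard error 0.63) with all libraries and 0.54 without WT replicate 2 (unadjusted p = 0.031, edgeR quasi-likelihood test), which did not pass Benjamini-Hochberg adjustment. Tlr6, which pairs with TLR2 to recognise diacylated lipoproteins, had the same order of libraries. It was at 0.743, 2.58 and 0.807 CPM in WT and at 1.44, 0.968 and 0.949 CPM in Zeb2 cKO hearts. Without WT replicate 2 the groups of Il33 and Tlr6 did not overlap, beside 15.5% of all genes tested in that comparison. Ly96, encoding the MD-2 subunit that binds lipopolysaccharide together with TLR4, was at 0.903, 1.07 and 0.781 CPM in WT and at 0.779, 0.668 and 1.12 CPM in Zeb2 cKO hearts, and it was highest in Zeb2 cKO replicate 3, not in WT replicate 2. Gsdmd, the pore-forming gasdermin that caspase-1 cleaves, was at 5.58, 8.20 and 5.78 CPM in WT and at 5.66, 6.22 and 5.34 CPM in Zeb2 cKO hearts. Pycard, the adaptor ASC between NLRP3 and caspase-1, was at 2.34, 4.76 and 2.79 CPM in WT and at 2.18, 3.76 and 2.14 CPM in Zeb2 cKO hearts. In Gsdmd and Pycard WT replicate 2 was highest and the other libraries overlapped.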
